A study of Mus musculus with 10 samples.

Results

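Desmosomes were followed through 10 genes in single cells of embryonic mouse back skin. These were the desmogleins Dsg1a, Dsg1b and Dsg3, the desmocollins Dsc1, Dsc2 and Dsc3, and the plaque genes Dsp, Jup, Pkp1 and Pkp3. They were chosen by symbol and make up 10 of the 27998 genes listed at E16.5 and of the 32285 listed at E15.5 and E17.5. The back skin was C57Bl/6J and CD-1 mixed, from embryos of both sexes. At E15.5 and at E16.5 there were 2 control libraries and 2 MOF cKO libraries, the latter MOFfl/fl with K14Cre. At E17.5 there was 1 control library and 1 QPC cKO library, the latter QPCfl/fl with K14Cre. Controls were littermates, and their labels give no allele. The K14 promoter that drives the Cre is active in the epithelium. MOF, encoded by Kat8, acetylates histone H4 at lysine 16, and QPC, encoded by Uqcrq, is a subunit of respiratory complex III. MOF cKO replicate 6 at E15.5 was described by the study as mosaic.

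Desmosomes are the junctions that tie the keratin filaments of neighbouring keratinocytes together. Desmogleins and desmocollins are cadherins whose outer domains meet between the cells. Their tails bind plakoglobin (Jup) and the plakophilins (Pkp1, Pkp3), which in turn bind desmoplakin (Dsp), the protein that holds the keratin filaments. In adult interfollicular epidermis Dsg3 and Dsc3 are the cadherins of the lower layers and Dsg1 and Dsc1 those of the upper layers, while Dsg2 and Dsc2 are more widely spread among epithelia. Desmogleins are the targets of the autoantibodies of pemphigus, and loss of Dsp, Jup or Pkp1 gives fragile skin.

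The 6 cadherin genes lie together in 1 cluster, whose sequence is not shown. The other 4 genes lie apart (GRCm38): Dsp at chr13:38151294-38198577 on the plus strand, Jup at chr11:100368958-100397763 on the minus strand, Pkp1 at chr1:135871395-135919207 on the minus strand and Pkp3 at chr7:141078218-141090510 on the plus strand. Of the plaque genes, Dsp and Jup had entries in the RefSeq promoter table used here (GRCm38.p6), and the 250 bases before their start sites are given, 5′ to 3′ on the gene's own strand. Capitals mark a match to the Krüppel-like factor motif CCNCACC or to its reverse complement. The Dsp sequence is chr13:38151044-38151293 and the Jup sequence is chr11:100397791-100398040.
Dsp: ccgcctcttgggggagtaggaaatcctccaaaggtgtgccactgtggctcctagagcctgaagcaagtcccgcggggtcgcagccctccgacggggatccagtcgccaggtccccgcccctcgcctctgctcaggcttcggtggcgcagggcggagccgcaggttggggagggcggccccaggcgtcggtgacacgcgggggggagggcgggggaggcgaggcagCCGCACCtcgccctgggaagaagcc
Jup: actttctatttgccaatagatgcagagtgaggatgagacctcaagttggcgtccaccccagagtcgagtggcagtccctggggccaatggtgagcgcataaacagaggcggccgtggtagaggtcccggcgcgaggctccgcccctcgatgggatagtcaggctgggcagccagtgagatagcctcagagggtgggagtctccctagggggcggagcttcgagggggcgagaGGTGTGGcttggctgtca
Each sequence held 1 match to CCNCACC on either strand, a motif present in 26.5% of 32851 promoter sequences of the same length. Neither held the AP-1 motif TGANTCA (6.75% of those promoters) or the grainyhead motif ACCGGTT (0.831%) on either strand. These are matches of letters only.

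Levels are given as counts of unique molecular identifiers (UMIs, 1 per captured transcript 3′ end) per 1000000 UMIs, written CPM, summed over the cells of one layer in one library. They are not divided by transcript length, so they are compared between cells and not between genes. Basal cells had at least 10 UMIs of Krt5 and Krt14 and fewer than 10 of Krt1 and Krt10, and suprabasal cells had at least 20 UMIs of Krt1 and Krt10. Libraries held 13609345 to 203392303 UMIs. Basal cells numbered 901 to 2584 per library at E15.5, 239 and 464 in the E16.5 controls, 21 and 22 in the E16.5 MOF cKO, and 2807 and 1066 in the E17.5 control and QPC cKO. Suprabasal cells numbered 147 to 361 at E15.5, 31 and 66 in the E16.5 controls, 9 and 13 in the E16.5 MOF cKO, and 190 and 72 at E17.5. The 4 E16.5 libraries were made with an earlier chemistry than those of the other days, so day and chemistry cannot be told apart. The E17.5 control and QPC cKO libraries listed 1702 barcodes in common, against at most 67 for any other pair. Of these, 7 were kept in both libraries, and no pair of libraries shared more than 0.354% of the kept barcodes of the smaller library.

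The layers were checked against their markers. All 7 keratinocyte markers and all 7 differentiation markers had UMIs in both layers of every library. These lists include the keratins of the layer rule, and presence alone does not tell the layers apart. The basal class was not pure: 48.4% of basal cells in the E17.5 control and 32.2% in E16.5 control 1 held more collagen than keratin UMIs, against 0 to 11.1% in the other 8 libraries. Values without these cells are called keratin-led. In the E16.5 MOF cKO, 8 of 9 and 13 of 13 suprabasal cells also held at least 10 UMIs of Krt5 and Krt14, against 24 of 31 and 32 of 66 in the controls. At E15.5 such cells were 129 of 147 and 269 of 361 in the controls and 139 of 188 and 172 of 213 in the MOF cKO. At E17.5 they were 182 of 190 in the control and 67 of 72 in the QPC cKO, so they were common on every day. At E16.5 the median count of Krt5 and Krt14 UMIs per suprabasal cell was 328 and 385 in the MOF cKO, against 77 and 8.5 in the controls. Cells with at least 10 UMIs of Lor, a late differentiation gene, were 1 of 9 and 0 of 13, against 8 of 31 and 18 of 66. The E16.5 suprabasal groups thus differed in make-up, and the part of this in their comparison was not tested. The median mitochondrial share of E16.5 suprabasal cells was 0.0811% and 0.0693% in the MOF cKO, against 3.44% and 2.02% in the controls. The targeted genes were Kat8, at 13.0 and 13.7 CPM in basal cells of the E15.5 controls and 13.4 and 10.3 in the MOF cKO, and at 16.4 and 14.9 in the E16.5 controls and 8.3 and 4.5 in the MOF cKO. The E16.5 MOF cKO values rested on 3 and 2 UMIs. In fibroblasts Kat8 was lower in every MOF cKO library than in both controls of its day, at 9.30 and 9.73 CPM in the E15.5 controls and 6.84 and 6.07 in the MOF cKO, and at 10.55 and 7.99 in the E16.5 controls and 2.62 and 5.35 in the MOF cKO. Uqcrq was at 103.3 CPM in E17.5 control basal cells and 45.7 in the QPC cKO, and in fibroblasts at 73.5 and 121.9. Where the 3′ tags of these genes lie relative to the deleted parts is not given in the sources used here.

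The desmosome transcripts were found mainly in keratinocytes. Dsp ranged over 185.6 to 588.9 CPM in basal cells of the 10 libraries and over 1.6 to 11.1 in collagen-positive, keratin-poor fibroblasts. With every cell thinned to 5000 UMIs, Dsp was found in 44.4 to 84.2% of basal cells, in 66.1 to 100% of suprabasal cells and in 0.802 to 5.90% of fibroblasts. Without thinning these shares were 58.6 to 97.8%, 80.3 to 100% and 1.75 to 17.54%, at median depths of 12536 to 25183, 11542 to 28848 and 9145 to 17728 UMIs per cell. Jup had a second site outside the epithelium: endothelial cells held 45.8 to 83.4 CPM of Jup, between the fibroblast range of 5.2 to 21.2 and the basal keratinocyte range of 97.7 to 415.7. Plakoglobin is also known as a component of endothelial junctions. Dsg3 was nearly absent from fibroblasts, at 0.1 to 0.8 CPM.

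**Figure D1:**
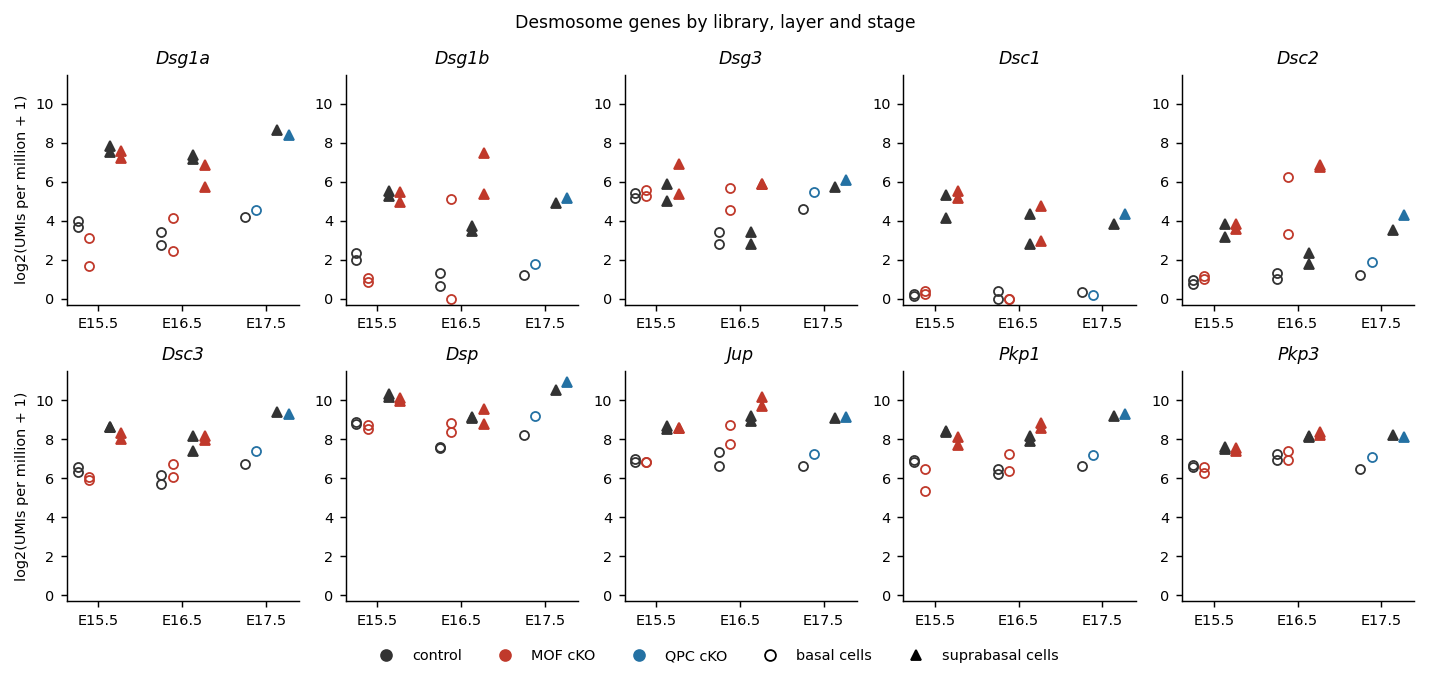
Level of each of the 10 desmosome genes as log2 of CPM plus 1 in the 10 libraries, by day, with 1 point per library for basal cells and 1 for suprabasal cells. Suprabasal points lie above basal points for 8 of the 10 genes in every library, the exceptions being Dsg3 and Dsp.

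The first comparison asked how the junction genes change as keratinocytes leave the basal layer, and used the 5 control libraries with the library as a block (edgeR quasi-likelihood, Benjamini-Hochberg adjustment). Of the 10 genes, 9 were higher in suprabasal cells and Dsg3 did not pass the test, while 15% of the 12753 genes tested were called higher and 29.5% were called in either direction. The median log2 difference of the 10 genes was 2.23, and the median of all genes was -0.07. With scaling by library size alone, the calls over all genes split into 1427 higher and 2440 lower, in place of 1908 and 1849, and the same 9 desmosome genes were called higher. None of the 9 lost its call when any single control library was left out.

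Dsg1a and Dsc1, the cadherins of the upper layers, differed most. Dsg1a was at 14.7 and 11.8 CPM in basal cells of the E15.5 controls, 5.66 and 9.73 in those of the E16.5 controls and 16.97 in that of E17.5. In suprabasal cells the values were 184.4 and 224.2, 166.8 and 141.6, and 403.8. The layers did not overlap, and the fold ran from 12.5 to 29.5 with a median of 18.9 (log2 difference 4.33, SE 0.210, adjusted p = 1.8e-05). Among keratin-led cells the Dsg1a fold ran from 12.3 to 18.8. Dsg1b, the second Dsg1 gene, was at 0.59 to 4.10 CPM in basal and 10.1 to 44.5 in suprabasal cells (log2 difference 3.92, SE 0.285, adjusted p = 8.8e-05), a fold of 6.75 to 22.1, or 4.22 to 20.1 among keratin-led cells. Dsg1a and Dsg1b are near-identical copies, so the split of their reads is uncertain. Dsc1 was almost confined to suprabasal cells, at 6.03 to 39.2 CPM against 0 to 0.30 in basal cells, where it was listed at 0 in E16.5 control 2 (log2 difference 6.89, SE 0.584, adjusted p = 0.000229). In the other 4 controls its fold was 20.2 to 395, or 12.7 to 378 among keratin-led cells.

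Dsc3, a desmocollin known from the basal layer, was nonetheless higher in suprabasal cells of every control. It was at 95.1 and 77.3 CPM in basal cells of the E15.5 controls, 70.0 and 51.2 in those of E16.5 and 105.8 in that of E17.5. The suprabasal values were 388.0 and 388.9, 285.4 and 164.6, and 679.7, from 3.22 to 6.42 times the basal ones, or 2.41 to 4.97 times among keratin-led cells (log2 difference 2.30, SE 0.149). Dsc2 was scarce in both layers, at 0.67 to 1.49 CPM in basal and 2.42 to 13.2 in suprabasal cells, and was called higher in the latter (log2 difference 3.09, SE 0.451, adjusted p = 0.00199), with a fold of 2.35 to 13.8, or 2.81 to 13.5 among keratin-led cells. Dsc1 and Dsc2 passed the filter on low counts through suprabasal cells alone, since no basal value reached its limit of 1.71 CPM, so their calls are not independent of the filter.

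The plaque genes were higher in suprabasal cells as well, and none reached the lowest Dsg1a fold of 12.5 in any control. Dsp, the filament anchor, was at 477.0 and 432.4 CPM in basal cells of the E15.5 controls, 185.6 and 190.6 in those of E16.5 and 294.8 in that of E17.5. In suprabasal cells it was at 1135 and 1297, 559 and 536, and 1475. Each suprabasal value was 2.38 to 5.003 times its own basal value, or 1.89 to 2.94 times among keratin-led cells (log2 difference 1.79, SE 0.163). Among keratin-led cells the E17.5 basal value was 562 and that of E16.5 control 1 was 299. Jup, the linker to the cadherin tails, was 3.02 to 5.60 times as high in suprabasal as in basal cells, or 2.97 to 3.68 times among keratin-led cells (log2 difference 2.17, SE 0.159). Pkp1 was 2.68 to 5.94 times as high (log2 difference 1.94, SE 0.192) and Pkp3 1.79 to 3.39 times (log2 difference 1.28, SE 0.157), the smallest difference among the genes called. Among keratin-led cells these folds were 2.46 to 3.20 for Pkp1 and 1.52 to 1.96 for Pkp3.

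Dsg3, the desmoglein known from the basal layer, did not follow the other cadherins. It was at 42.5 and 35.1 CPM in basal cells of the E15.5 controls, 5.96 and 9.73 in those of E16.5 and 22.9 in that of E17.5. Its suprabasal values were 58.5 and 31.3, 6.03 and 9.68, and 52.8. The fold was above 1 in 3 of 5 controls and in 2 of 5 among keratin-led cells, with a range of 0.894 to 2.30 (log2 difference 0.52, SE 0.231, adjusted p = 0.121). Over the 16 alternatives the log2 difference stayed between 0.05 and 0.72, and the adjusted p between 0.0811 and 0.872.

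**Figure D2:**
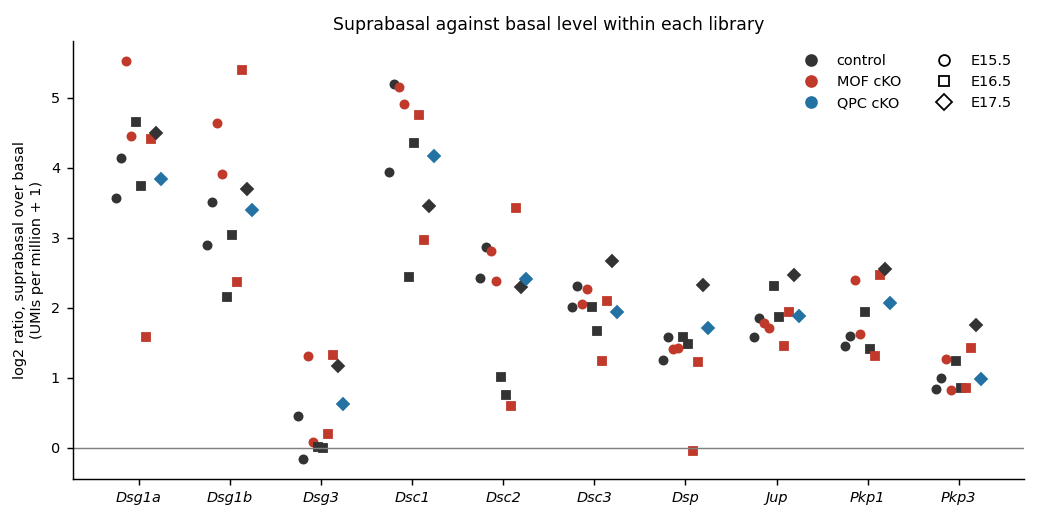
Suprabasal over basal level of each desmosome gene, as log2 of the ratio of CPM plus 1, with 1 point per library marked by group and a line at 0 for equal levels. Dsg1a lies above 0 in all 10 libraries, whereas the points of Dsg3 lie on both sides of 0.

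The 2 layers are ends of a range, and the 3 deepest controls (E15.5 controls 2 and 3 and the E17.5 control) were therefore also read along the sum of Krt1 and Krt10 UMIs, in keratin-led cells and 6 bins. Dsg1a went from 13.8, 10.4 and 27.2 CPM in cells with fewest Krt1 and Krt10 UMIs to 326.5, 311.4 and 570.1 in those with 500 or more. Dsp went from 468, 423 and 523 CPM to 1614, 1578 and 1715, a fold of 3.45, 3.74 and 3.28. Dsg3 was highest part of the way: in E15.5 control 2 it ran 40.8, 51.9, 72.4, 84.7, 44.9 and 39.7 CPM from the first bin to the last. In E15.5 control 3 it ran 37.1, 35.2, 39.2, 46.2, 40.3 and 18.7, and in the E17.5 control 36.6, 41.6, 65.9, 67.7, 83.4 and 31.1. The highest Dsg3 value therefore stood in an intermediate bin in all 3 libraries, and the last bin was at 0.973, 0.503 and 0.851 of the first. The bins use the same cells as the layer comparison and are a description. The smallest of them held 25 to 42 cells.

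**Figure D3:**
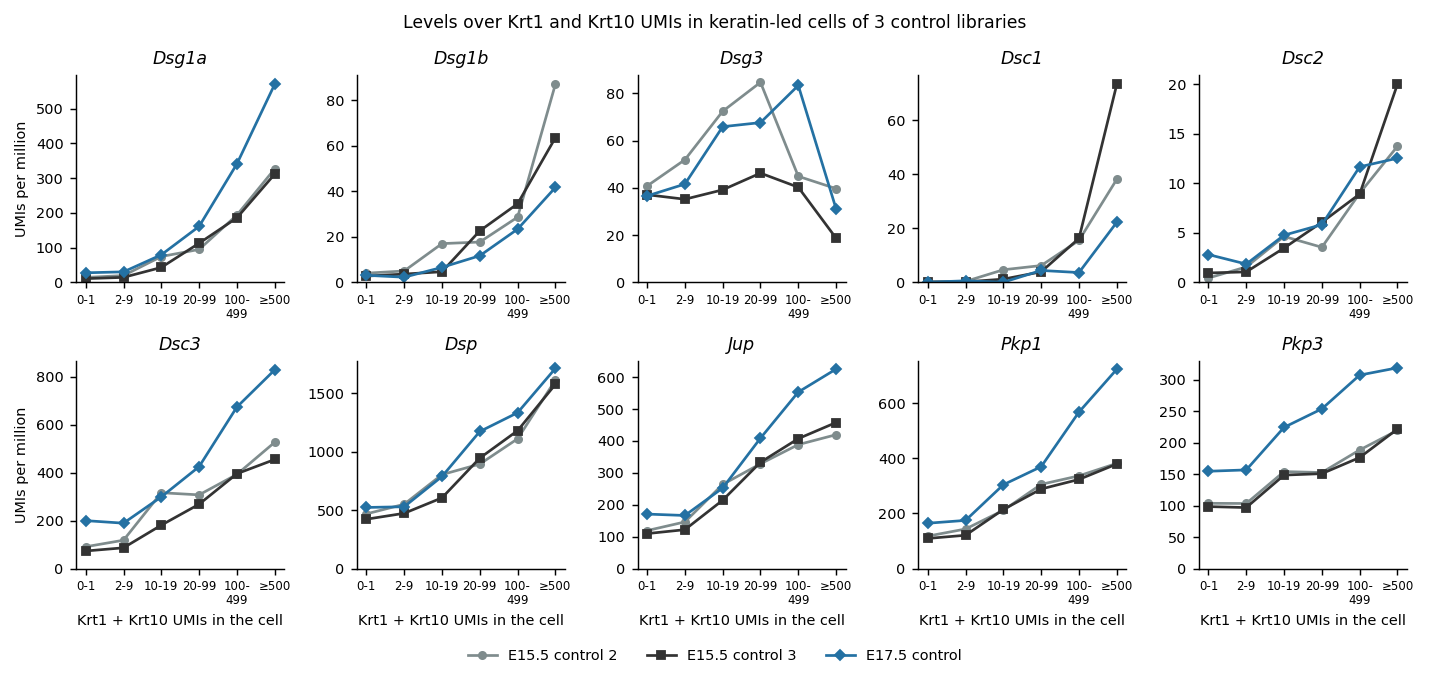
Level of desmosome genes in CPM against the bin of Krt1 plus Krt10 UMIs per cell, in keratin-led cells, with 1 line for each of 3 control libraries. Dsg1a ends at its highest value, and Dsg3 ends below its peak in each of the 3 libraries.

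The other junction genes were read from lists of known members. Among the transcription factors linked to desmosome genes 6 of 7 tested were higher in suprabasal cells and none lower, led by the grainyhead factor Grhl1 (log2 difference 4.43) and by Zfp750 (4.41). Of the corneodesmosome proteases and their inhibitors 4 of 5 tested were higher, with Klk7 at 5.31 and Spink5, an inhibitor of these kallikreins, at 4.89. Of 8 tested other desmosome and envelope genes 5 were higher and 1 lower. Cdsn, the corneodesmosin of cornified cells, stood at 7.82, and Evpl (envoplakin) at 2.39. Tight junction genes counted 7 higher and 1 lower of 10 tested, with Cgn at 3.27 and Ocln at 3.05. Adherens junction genes counted 6 higher and 2 lower of 10, with Nectin4 at 4.73 and the basal cadherin Cdh3 at -1.62. Hemidesmosome genes, which anchor basal cells to the basement membrane, counted 0 higher and 3 lower of 6, with Itgb4 at -1.43 and Itga6 at -1.32. These counts stand beside 15% of all genes higher and 14.5% lower.

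Likeness to other genes was read over the 20 sums of 10 libraries by 2 layers, as Pearson's r of log2 levels among about 2560 genes, and is a description because the points share libraries, layers and depth. The genes most like Dsg1a were Eef2k (r = 0.969), Capns2 (0.965) and Npl (0.956). Those most like Dsg3 were Mpzl2 (0.869), Jag1 (0.861) and Hspa1b (0.837), and those most like Dsp were Tiam1 (0.952), Stard10 (0.921) and the desmocollin Dsc3 (0.902).

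The second comparison asked what loss of MOF does to these genes, first at E15.5. None of the 9 desmosome genes tested in basal cells was called, and neither was any of the 14364 genes tested (0%) by edgeR. At an unadjusted p under 0.05 there were 3 of the 9 and 1261 of all genes, and DESeq2 called 119 genes and none of the 9. Dsc1 did not pass the filter on low counts. Nothing in the labels says whether libraries of a group came from separate litters or pools, so p-values measure the spread between these libraries only.

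The 3 genes with the lowest unadjusted p were the Dsg1 pair and Pkp1. Basal Dsg1a was at 14.7 and 11.8 CPM in the controls and at 2.25 and 7.57 in the MOF cKO (log2 fold change -1.33, SE 0.490, adjusted p = 0.524). Basal Dsg1b was at 4.10 and 2.996 in the controls and 0.80 and 1.07 in the MOF cKO (log2 fold change -1.77, SE 0.320, adjusted p = 0.524), and Pkp1 at 121.0 and 111.4 against 39.2 and 86.7 (-0.78, SE 0.286, adjusted p = 0.524). In all 3 both MOF cKO libraries lay below both controls, and replicate 5 lay below replicate 6, the library described as mosaic. In all, 6 of the 10 genes (Dsg1a, Dsg1b, Dsc3, Dsp, Pkp1 and Pkp3) had both MOF cKO values below both controls, where 31.7% of all genes did so, and 2 (Dsc1 and Dsc2) had them above, where 17.9% did. Here and below, such shares are over genes with at least 10 UMIs in the compared libraries together. Dsc1 rested on 5 to 7 UMIs per library. The remaining log2 fold changes were 0.63 for Dsc2, 0.30 for Dsg3, 0.09 for Jup, -0.08 for Pkp3 and -0.32 for Dsc3.

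The calls at E15.5 depended on single libraries. Without MOF cKO 6, Dsg1a (-2.26), Dsg1b (-1.84) and Pkp1 (-1.27) were called lower and Dsg3 (0.57) and Jup (0.21) higher, beside 26.8% of genes called lower and 22.5% higher. Without MOF cKO 5, Dsg1a (-0.81), Dsg1b (-1.72) and Pkp1 (-0.42) were called lower and none higher, beside 3.46% and 3.66% of genes. Both fits leave a single MOF cKO library, which is taken to vary as the control pair does. Dsp, in contrast, was at 477.0 and 432.4 CPM in the controls and 370.2 and 418.9 in the MOF cKO (log2 fold change -0.06), and its sign turned without the collagen-led cells (0.02).

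In suprabasal cells at E15.5 none of the 10 genes was called, nor was any of 10819 genes (0%). By DESeq2 49 genes and none of the 10 were called, and in edgeR 831 genes and 1 of the 10 had an unadjusted p under 0.05. Dsg1a was at 184.4 and 224.2 CPM in the controls and 148.9 and 187.2 in the MOF cKO, so the groups overlapped. Dsc3 was at 388.0 and 388.9 against 252.1 and 315.2 (log2 fold change -0.36), and Pkp1 at 333.2 and 337.5 against 210.6 and 270.9 (-0.39). For Dsc3, Pkp1 and Dsp both MOF cKO libraries lay below both controls, which 21% of all genes showed. Dsg3 had the largest log2 fold change, 1.02, and it came from 1 library: MOF cKO 5 held 117.6 CPM, MOF cKO 6 40.2, and the controls 58.5 and 31.3. Without MOF cKO 5 it was -0.17. The log2 fold change was 0.61 for Dsc1, 0.25 for Dsc2, 0.07 for Jup, 0.02 for Pkp3, -0.02 for Dsg1b and -0.11 for Dsp.

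At E16.5 the MOF cKO basal sums rested on 21 and 22 cells. None of the 8 desmosome genes tested was called in basal cells, where 23 of 9454 genes (0.243%) were, all of them higher. At an unadjusted p under 0.05 there were 6 of the 8, beside 1943 of all genes (20.6%), and DESeq2 called 3 of them and 299 genes (3.16%). Dsg1b and Dsc1 did not pass the filter, and Dsc2 passed it through the MOF cKO alone (limit 5.26 CPM). All 8 log2 fold changes were above 0, with a median of 1.29 against -0.11 for all genes. That of Dsg1a (0.85) turned to -0.39 without MOF cKO 1. The lists of other junction genes went the same way. Above 0 were 10 of 10 adherens junction genes (median 0.95), 6 of 6 hemidesmosome genes (0.81) and 7 of 7 linked transcription factors (1.27). So were 5 of 6 tight junction genes (0.97) and 5 of 6 other desmosome and envelope genes (0.77). All 3 corneodesmosome proteases and inhibitors tested were as well (1.67). The rise was therefore not particular to the desmosome genes. Single cells carried part of several of the desmosome gene values. Without the cell holding most of a gene's UMIs in each MOF cKO library, Dsc3 went from 105.3 and 65.4 CPM to 41.7 and 46.0, below its control values of 70.0 and 51.2. Of 6 Dsg1a UMIs in MOF cKO 1, 5 lay in 1 cell, and without the top cell of each library Dsg1a was at 2.98 and 2.42 CPM, below its controls at 5.66 and 9.73. These cells were chosen by the gene's own UMIs and taken from the MOF cKO only, so the removal leans towards a fall. Leaving out the deepest cell of every library instead gave Dsc3 at 116.4 and 69.8 CPM, against 69.0 and 51.5 in the controls. Dsg1a was then at 18.4 and 4.99, against 5.42 and 9.80. The log2 fold change was 1.02 for Dsc3 and Pkp1 and 0.58 for Pkp3.

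Basal Dsp at E16.5 was at 185.6 and 190.6 CPM in the controls and at 457.3 and 324.8 in the MOF cKO (log2 fold change 1.57, SE 0.347, adjusted p = 0.117). Jup was at 98.0 and 159.2 in the controls and 415.7 and 214.3 in the MOF cKO (1.77, SE 0.492, adjusted p = 0.160), and Dsg3 at 5.96 and 9.73 against 49.9 and 22.6 (2.63, SE 0.589, adjusted p = 0.119). Without the cell holding most of the gene's UMIs, Dsp in the MOF cKO was at 339.9 and 283.1, Jup at 360.8 and 164.5 and Dsg3 at 39.6 and 14.5, above both controls. Against keratin-led control cells, with Dsp at 298.7 and 200.3 and Jup at 151.3 and 164.8, the MOF cKO 2 values of Dsp (283.1) and Jup (164.5) no longer lay above both. Here too the cell was taken from the MOF cKO only. Leaving out the deepest cell of every library instead gave Dsp at 490.0 and 336.6 CPM, against 183.7 and 191.4 in the controls. Jup was then at 453.2 and 224.4 against 96.4 and 160.1, and Dsg3 at 55.1 and 24.9 against 6.02 and 9.65. With all cells kept, in these 3 and in Dsc2 both MOF cKO libraries lay above both controls, which 9.3% of all genes showed, and no gene of the 10 had them below, as 51.9% of all genes did. The MOF cKO sums held 360839 and 443389 UMIs, against 3356285 and 6783085 in the controls. A scarce gene can therefore be listed at 0 in the MOF cKO, so these shares depend on depth. Dsc2 had a log2 fold change of 5.53 (adjusted p = 0.0862) and rested on 27 and 4 UMIs in the MOF cKO, of which 21 and 4 lay in 1 cell of each library, and on 5 and 7 in the controls. The ratio of the summed Dsc2 levels was 32.6 (exact 95% interval 16.3 to 69.6, counting error only).

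The E16.5 basal result moved with how basal cells were chosen. With the keratin limits set per 10000 UMIs of a cell in place of per cell, 8 of the 10 genes were called higher (Dsg1a, Dsg1b, Dsg3, Dsc2, Dsc3, Dsp, Jup and Pkp1), where 6.29% of all genes were. Dsp was then at a log2 fold change of 1.61, Dsg3 at 2.77 (adjusted p = 0.00697) and Dsc2 at 6.22 (adjusted p = 0.00315), while Pkp3 (0.37) was not called. Dsc2 and Dsg1b passed the filter there through the MOF cKO alone. Without collagen-led cells, which made up 32.2% of basal cells in control 1 and none in the MOF cKO, 1 of the genes, Dsc2, was called (adjusted p = 0.0427), where 1.96% of all genes were called higher. Dsc2 again passed the filter through the MOF cKO alone, with both controls under the limit of 8.07 CPM. Dsp in the keratin-led controls was at 299 and 200 CPM. Without control 2, Dsg3 (adjusted p = 0.0244) and Jup (0.0296) were called, beside 5.82% of all genes in either direction. The 4 listed hair follicle markers summed to 3783 and 2361 CPM in the MOF cKO basal cells and 1019 and 1104 in the controls. Krt17, a keratin that is also known from stressed epidermis, made up 98.4 and 97.99% of the MOF cKO sums, Sox9 was at 61.0 and 47.4 CPM against 28.3 and 41.1 in the controls, and Shh and Lhx2 were at 0 in both MOF cKO libraries. Their part in the result was not tested.

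**Figure D4:**
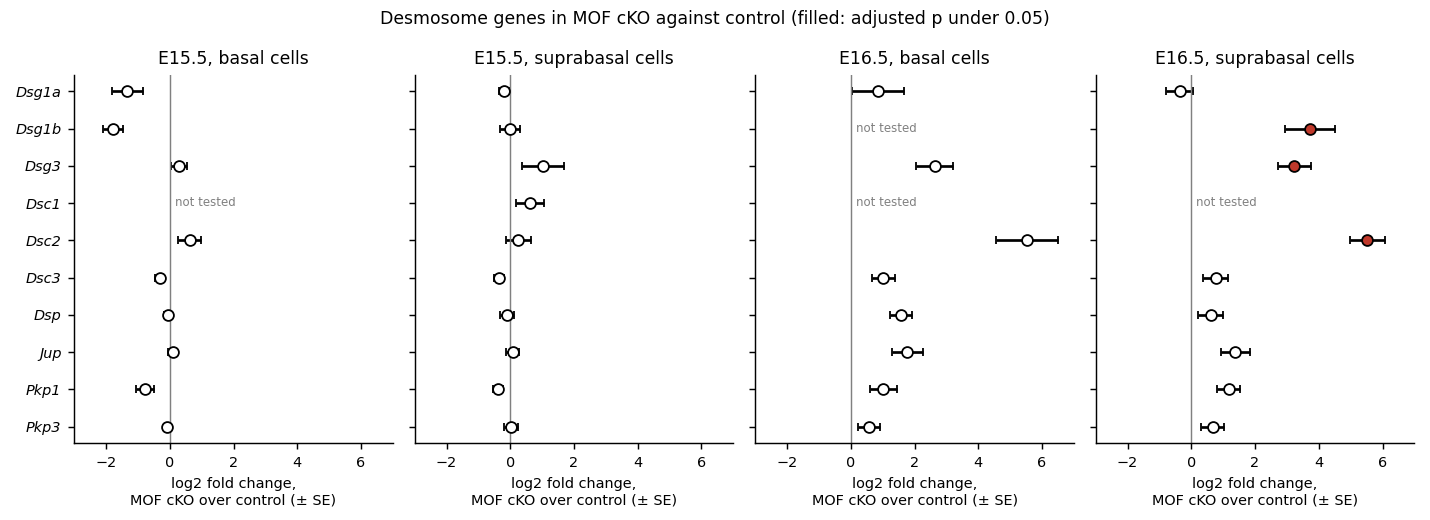
Log2 fold change of each desmosome gene, MOF cKO over control, at E15.5 and E16.5 in basal and suprabasal cells, from edgeR, with bars of 1 standard error. Filled points pass the adjusted threshold of 0.05, and these are Dsc2, Dsg3 and Dsg1b in E16.5 suprabasal cells.

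In suprabasal cells at E16.5, 3 of the 9 genes tested were called, all higher in the MOF cKO, where 202 of 4266 genes (4.74%) were called, 3.8% higher and 0.938% lower. With scaling by library size alone the calls over all genes split into 120 higher and 164 lower, in place of 162 and 40. The 3 were Dsc2 (log2 fold change 5.53, SE 0.549, adjusted p = 0.00613), Dsg3 (3.23, SE 0.505, adjusted p = 0.0166) and Dsg1b (3.72, SE 0.794, adjusted p = 0.0414). All 3 passed the filter on low counts through the MOF cKO alone, since both controls lay under its limit of 25.3 CPM for each, so that a gene of this kind could enter the test only where it was high in the MOF cKO. Dsg3 was at 6.03 and 9.68 CPM in the controls and 57.1 and 58.2 in the MOF cKO, and Dsg1b at 10.1 and 12.1 against 176.5 and 41.1. Over both libraries Dsg3 rested on 11 UMIs in the controls and 28 in the MOF cKO, and Dsg1b on 15 and 46. Dsc2 was at 4.02 and 2.42 against 114.2 and 106.2, from 2 UMIs in each control and 22 and 31 in the MOF cKO (ratio of sums 36.2, exact 95% interval 13.3 to 138, counting error only). The interval pools both libraries and takes each UMI as independent, so it does not cover the spread between cells or embryos. For 6 of the 10 genes, these 3 with Jup, Pkp1 and Pkp3, both MOF cKO libraries lay above both controls, as 11.6% of all genes showed. The MOF cKO sums were smaller here as well, at 192632 and 291889 UMIs against 497466 and 826054, so this share too depends on depth.

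These 3 calls rested on few cells. In MOF cKO 1, a single cell with 74411 UMIs and 5720 detected genes supplied 38.6% of the suprabasal UMIs; whether it held more than 1 cell was not tested. It held 22 of the 22 Dsc2 UMIs, 47 of 48 of Dsc3, 9 of 11 of Dsg3, 67 of 85 of Dsp, 117 of 220 of Jup and 13 of 34 of Dsg1b. In MOF cKO 2, 1 cell held 24 of 31 Dsc2 UMIs, and Dsc2 was found in 4 of 13 cells. Without the deepest cell of each library and layer, a setting added after the data were seen, Dsc2 and Dsg3 no longer passed the filter, Dsg1b had a log2 fold change of 3.57 (adjusted p = 0.0719), and 0 of 7 desmosome genes were called, where 3.14% of all genes were. Without MOF cKO 1, Dsc2 alone of the 10 was called (adjusted p = 0.0171), beside 0.625% of all genes. With limits per 10000 UMIs it was again Dsc2 alone (adjusted p = 0.0144), beside 2.5%, the adjusted p of Dsg3 then being 0.0577 and that of Dsg1b 0.0680. Dsg1b also lost its call with a block for the replicate number (adjusted p = 0.0668) and without cells under 0.5% mitochondrial UMIs (0.0862). The mitochondrial limit left 1 and 5 MOF cKO cells, the 1 being the cell with 74411 UMIs, so the MOF cKO 1 values under it rest on that cell. The 5 cells of MOF cKO 2 held 31 Dsc2 and 17 Dsg3 UMIs, against 22 and 9 in that cell.

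**Figure D5:**
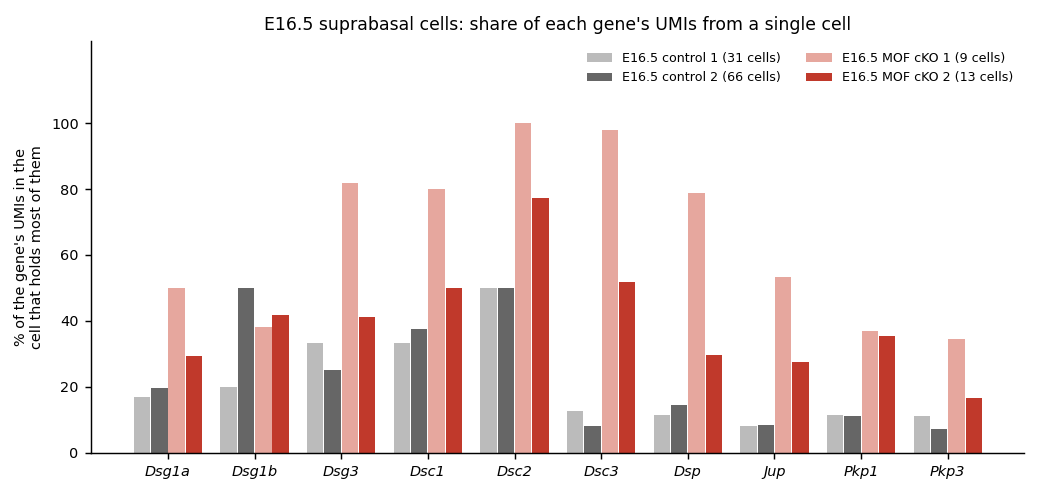
Percentage of each desmosome gene's suprabasal UMIs that came from the single cell holding most of them, in the 4 E16.5 libraries (31, 66, 9 and 13 cells). In MOF cKO 1 the value is 100% for Dsc2 and 97.9% for Dsc3.

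The remaining E16.5 suprabasal genes were not called. Dsg1a, the cadherin of the upper layers, was at 166.8 and 141.6 CPM in the controls and 51.9 and 116.5 in the MOF cKO (log2 fold change -0.37), below both controls in both libraries, as 49.6% of all genes were, a share that also depends on depth. Jup was at 492.5 and 585.9 against 1142 and 825.7 (1.38, adjusted p = 0.115), and Dsp at 558.8 and 536.3 against 441.3 and 760.6 (0.61). The log2 fold changes use edgeR's TMM scaling and the CPM values library size alone, by which the fold of the Dsp means was 1.10. The log2 fold change was 1.17 for Pkp1, 0.76 for Dsc3 and 0.67 for Pkp3, while Dsc1, at 6.03 and 19.4 CPM against 25.96 and 6.85, did not pass the filter. Over the alternatives that kept every library, it went as low as 0.09 for Dsp, 0.12 for Pkp3 and 0.007 for Dsc3. Of the companion lists, 1 of 37 genes tested passed, beside 0.938% of all genes called lower and 3.8% higher: Cdsn, of the other desmosome and envelope genes, at -3.69 (SE 0.521, adjusted p = 0.0131). The sums of the 7 differentiation markers, which include Krt1 and Krt10 of the layer rule, were 80460 and 76951 CPM in the controls and 27965 and 28175 in the MOF cKO. Those of the 4 hair follicle markers were 1467 and 1143 in the controls against 7325 and 4831 in the MOF cKO. Krt17 made up 99.9 and 98.9% of the latter. Shh was at 0 in both MOF cKO libraries and in control 1, and at 1.21 CPM in control 2. Lhx2 was at 0 in both controls and in MOF cKO 1, and at 3.43 CPM in MOF cKO 2. Their part in the results was not tested.

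The difference between the MOF effects at E16.5 and E15.5 was tested in a single model with an interaction term. Day and chemistry cannot be told apart in it, and MOF cKO 6 at E15.5 was described as mosaic. In suprabasal cells 1 of the 10 genes passed, beside 8 of 9968 genes (0.0803%). This was Dsc2, with a difference of 5.35 (log2, SE 0.697, adjusted p = 0.0153). The call was lost without E16.5 control 2 (adjusted p = 0.0530), without MOF cKO 1 (0.250), without MOF cKO 2 (0.121), without the deepest cells (difference 4.63, adjusted p = 0.296), and with limits per 10000 UMIs and no collagen-led cells (4.92, 0.0576). With any single library left out the Dsc2 difference itself stayed between 4.92 and 5.70. In basal cells 0 of 9 genes passed by edgeR, beside 3 of 13189 (0.0227%), with 7 of the 9 and 1504 of all genes (11.4%) at an unadjusted p under 0.05. DESeq2 called 5 of the 9, beside 1.56% of all genes. Basal Dsg1b had a difference of 6.28, was called without MOF cKO 2 at E16.5 (7.39, adjusted p = 0.0493), and without MOF cKO 1 its sign turned (-5.37). Apart from these, the differences ran from 0.58 (Pkp3) to 4.89 (Dsc2) in basal and from -0.18 (Dsg1a) to 3.68 (Dsg1b) in suprabasal cells.

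The third comparison set the QPC cKO against its control at E17.5, with 1 library each and therefore no test. Intervals cover counting error only, and a gene was counted as past the fold where its log2 ratio reached 1 in either direction among genes with at least 100 UMIs. In basal cells 0 of the 7 desmosome genes with enough UMIs were past the fold, where 12.8% of 12851 genes were. All 7 were higher in the QPC cKO, with a median log2 ratio of 0.63. So were 6 of 6 hemidesmosome genes and 6 of 6 other desmosome and envelope genes, each list with a median of 0.62. Adherens junction genes counted 8 of 10 higher (median 0.27), tight junction genes 7 of 8 (0.22) and linked transcription factors 6 of 7 (0.25). Of 2 corneodesmosome proteases and inhibitors, 1 was higher. Dsp was at 294.8 CPM in the control and 588.9 in the QPC cKO (fold 1.998, interval 1.96 to 2.04). Dsg3 was at 22.9 and 43.5, Dsc3 at 105.8 and 164.7, and Dsg1a at 16.97 and 22.7. Dsg1b (1.31 and 2.46), Dsc2 (1.33 and 2.69) and Dsc1 (0.287 and 0.154) had fewer than 100 UMIs. With basal cells limited to those under 5% mitochondrial UMIs, 6 of the 7 were past the fold, all higher in the QPC cKO and with a median log2 ratio of 1.16 over the 7, where 15.4% of 12205 genes were past it and 441 of those were higher. Collagen-led cells were then 68.6% of basal cells in the control and 19.8% in the QPC cKO. Barcodes listed in both libraries marked 75 control and 10 QPC cKO basal cells, and without these, a setting added after the data were seen, Dsp was at 301.2 and 591.4.

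The make-up of the basal class differed between the 2 libraries. Collagen-led cells were 48.4% of basal cells in the control and 10.4% in the QPC cKO, and among keratin-led cells 2 of the 7 genes were higher in the QPC cKO and none was past the fold (4.91% of all genes were), with a median log2 ratio of -0.14. Keratin-led Dsp was at 562 CPM in the control and 648 in the QPC cKO (fold 1.15, interval 1.13 to 1.18) and Dsg3 at 43.6 and 47.8 (1.10, 1.01 to 1.19). Dsc3 was at 202 and 181 (0.897), Dsg1a at 31.5 and 24.96 (0.793), Jup at 176 and 163, Pkp1 at 184 and 160, and Pkp3 at 166 and 150. Past the fold in all basal cells were 167 of 12851 genes upwards and 1479 downwards, 12.8% in either direction. Of the companion lists, 5 of 39 genes tested passed it, all higher: Grhl1 (log2 ratio 1.32), Trp63 (1.12), F11r (1.23), Cldn1 (1.21) and Cdh1 (1.03). Among keratin-led cells none of the 5 did, with Grhl1 at 0.72, Trp63 at 0.32, F11r at 0.49, Cldn1 at 0.64 and Cdh1 at 0.25.

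In suprabasal cells at E17.5, 0 of 8 genes were past the fold, where 1.37% of 5911 genes were. Dsp was at 1475 CPM in the control and 1927 in the QPC cKO (fold 1.31, interval 1.26 to 1.36), and Dsg3 at 52.8 and 68.0 (1.29, 1.04 to 1.59). Dsg1a was at 403.8 and 339.5 (0.841, 0.771 to 0.916). Jup, at 547.1 and 552.6, had a fold of 1.01, Pkp1 one of 1.05, Dsc3 one of 0.936, Pkp3 one of 0.911 and Dsg1b one of 1.22. Dsc1 and Dsc2 had fewer than 100 UMIs in both libraries. None of the companion genes passed the fold. Barcodes listed in both libraries marked 21 control cells and 1 QPC cKO cell, and without them Dsp was at 1427 and 1912 and Dsg1a at 379.6 and 322.8.

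Across days, suprabasal Dsg1a in the controls was highest at E17.5 (403.8 CPM, 1 library), followed by E15.5 (184.4 and 224.2) and E16.5 (166.8 and 141.6). Suprabasal Dsp followed the same order, at 1475, then 1135 and 1297, then 559 and 536. Cells with at least 10 UMIs of the late differentiation gene Lor were 8 of 31 and 18 of 66 in the E16.5 controls, 11 of 147 and 20 of 361 at E15.5 and 1 of 190 at E17.5. Without them Dsg1a was at 194.9 and 139.1 CPM at E16.5 and 191.9 and 220.2 at E15.5, so these days overlapped, whereas Dsp was at 716 and 561 against 1171 and 1311. E17.5 had a single library and E16.5 another chemistry, so no test was made.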

How the data were processed

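Back skin was dissociated with collagenase and then trypsin, and 10x 3′ libraries were made per sample. The authors processed reads with Cell Ranger (versions 1.3.1 and 6.1.2 appear in the submitters' processing notes) on mm10 and deposited raw UMI counts per gene and barcode, unpooled. Here, cells with more than 1000 and fewer than 6000 genes and under 10% mitochondrial UMIs were kept, doublets were not removed, and counts were summed per library and layer. Sums were tested with edgeR 4.0.16 (TMM, filterByExpr, robust quasi-likelihood) under Benjamini-Hochberg adjustment at 0.05 over all genes. DESeq2 1.42.0, other scalings, no filter, other cell limits and leaving out each library were alternatives. At E17.5 exact intervals and log2 ratios with a pseudocount of 1 CPM were used. In simulated data the tests recovered 49.0% of 2-fold changes between layers, 26.9% in E15.5 basal, 9.79% in E15.5 suprabasal and 0.51% in E16.5 basal cells, and none in E16.5 suprabasal cells or in the interactions. The 10 genes were all to be named, with the 2 most changed genes called per companion list in each comparison and 3 by likeness for Dsg1a, Dsg3 and Dsp. The genes, lists and tests were chosen with earlier results of these data known. The 4 keratins of the layer rule are no result.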

Additional observations from a re-analysis of the deposited data

Results flagged for a closer look

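Among the 10 desmosome genes, Dsc2 differed between the E16.5 and E15.5 libraries in its suprabasal response to MOF loss. The difference was 5.35 on the log2 scale (SE 0.697, adjusted p = 0.0153 by edgeR's interaction term). Day and chemistry cannot be told apart in it, and the E16.5 controls together held 4 suprabasal Dsc2 UMIs. The call was lost without E16.5 control 2 (adjusted p = 0.0530), MOF cKO 1 (0.250), MOF cKO 2 (0.121) or the deepest cells (0.296), and with limits per 10000 UMIs and no collagen-led cells (0.0576). In both E16.5 MOF cKO libraries most of its UMIs came from 1 cell, 22 of 22 and 24 of 31.

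For Dsp in basal cells both MOF cKO libraries lay below both controls at E15.5 (fold of means 0.868) and above them at E16.5 (fold 2.08). Of all genes, 31.7% lay below in this way at E15.5 and 9.3% above at E16.5, shares that depend on depth. These positions use library size alone. With edgeR's TMM scaling the E15.5 log2 fold change was -0.06, and its sign turned under 3 of 14 alternatives. By edgeR's interaction term the difference was 1.55 on the log2 scale, with an adjusted p of 0.263 (0.00258 to 0.754 over the alternatives, called by DESeq2 and without a filter on low counts).

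Pkp1 in suprabasal cells showed the same turn, from a fold of 0.718 at E15.5 to 1.60 at E16.5. Of all genes, 21% lay below both controls at E15.5 and 11.6% above them at E16.5. The E16.5 MOF cKO values rested on 9 and 13 cells, and 1 cell supplied 38.6% of the UMIs of MOF cKO 1. By edgeR the difference was 1.54 on the log2 scale, with an adjusted p of 0.176 (1.3e-07 to 0.535 over the alternatives, called by DESeq2 alone). None of the 10 desmosome genes showed a control library standing apart from the other 4 in its layer ratio by Dixon's test, which chance would give in about 1 of 20 groups.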

How the results depend on the processing

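Without a filter on low counts, called genes numbered 2 of 21581 in E15.5 basal and 386 of 18052 in E15.5 suprabasal cells. In E16.5 basal cells they numbered 946 of 16665, with 5 of 10 desmosome genes, and in E16.5 suprabasal cells 531 of 13607. The difference between the E16.5 and E15.5 MOF effects is called the stage difference. For it they numbered 113 in basal and 271 in suprabasal cells, with 4 and 3 desmosome genes. DESeq2 gave 119 of 14364 in E15.5 basal and 49 of 10819 in E15.5 suprabasal cells. In E16.5 basal cells it gave 299 of 9454, with 3 of 8 desmosome genes. For the stage difference it gave 206 of 13189 (5 desmosome genes) in basal and 126 (3) in suprabasal cells. Library size alone gave 12 in E16.5 basal cells and 0 and 20 for the stage difference, and moved the median log2 change of all genes from -0.11 to -0.64 in E16.5 basal from -0.05 to -0.58 in E16.5 suprabasal and from -0.01 to -0.15 in E15.5 basal cells, from -0.07 to -0.20 between layers, and from -0.28 to -0.58 and -0.29 to -0.65 in the stage differences.

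Limits per 10000 UMIs gave 763 of 8495 genes (8 of 9 desmosome genes) in E16.5 basal and 93 of 3720 (1 of 9) in E16.5 suprabasal cells. Of the 8, Dsc2 and Dsg1b passed the filter through the MOF cKO alone. The same limits gave 55 (2) for the basal stage difference and 240 of 10906 past the fold in E17.5 basal cells. Without collagen-led cells the counts were 199 of 8270 (1 of 8) in E16.5 basal and 554 of 11272 in E17.5 basal cells. Under 5% mitochondrial UMIs gave 12 of 8606 in E16.5 basal cells and 0 and 13 for the stage differences. In E17.5 basal cells it put 6 of 7 desmosome genes past the fold, all higher, beside 1879 of 12205 genes. A pseudocount of 10 gave 553 and 45 past the fold in E17.5 basal and suprabasal cells. Without a library block the layer comparison gave 1592.

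The added settings were chosen after seeing the data. Limits per 10000 UMIs without collagen-led cells gave 937 of 8196 genes (8 of 9 desmosome genes) in E16.5 basal and 71 of 3705 (1 of 9) in E16.5 suprabasal cells. They gave 50 (1) and 1 (0) for the 2 stage differences and 205 of 10705 in E17.5 basal cells. Without cells under 0.5% mitochondrial UMIs there was 1 of 10718 in E15.5 suprabasal and 85 of 3785 (2 of 9) in E16.5 suprabasal cells. There Dsg1b lost its call by edgeR (log2 fold change 3.22, adjusted p = 0.0862). This limit left 1 and 5 MOF cKO cells at E16.5, the 1 being the deepest. Without the deepest cells there were 121 of 3848 (0 of 7) in E16.5 suprabasal cells and 0 (0) and 5 (0) for the stage differences.

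Leaving out 1 library gave 0 to 7498 genes (0 to 5 desmosome genes) in E15.5 basal, 0 to 1787 in E15.5 suprabasal, 0 to 354 (0 to 2) in E16.5 basal, 38 to 289 (1 to 3) in E16.5 suprabasal, 2370 to 3873 (9 to 9) in the layer comparison, 0 to 37 (0 to 1) for the basal and 0 to 19 (0 to 1) for the suprabasal stage difference.

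Replicate numbers were shared at E16.5 only, and the deviations of same-numbered samples correlated at -0.081 (basal) and -0.035 (suprabasal). The paper describes 2 pairs of samples with littermate controls, and correlations over 2 pairs cannot settle whether equal numbers mark a pair. A replicate block gave 120 of 9454 genes and 1 of 8 desmosome genes in basal cells. In suprabasal cells it gave 108 and 2, and Dsg1b was no longer called by edgeR (adjusted p = 0.0668).

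Directions turned as follows (log2 values, leaving out 1 library given as a range). In E15.5 basal cells Dsp was 0.022 without collagen-led cells and 0.051 with limits per 10000 UMIs as well, Pkp3 was 0.0040 and 0.024 under these, and Jup was -0.069 by library size alone. The ranges were -0.038 to 0.573 for Dsg3, -0.120 to 7.9e-05 for Dsp and -0.053 to 0.209 for Jup. In E15.5 suprabasal cells Dsg1b was 0.048 with limits per 10000 UMIs, 0.055 without collagen-led cells, 0.105 with both and 0.022 under 5% mitochondrial UMIs. Jup was -0.038 and Pkp3 -0.094 by library size alone, and Pkp3 was -0.012 without a filter and -0.016 without cells of low mitochondrial share. The ranges were -0.106 to 0.741 for Dsc2, -0.524 to 0.345 for Dsg1b, -0.173 to 1.71 for Dsg3, -0.227 to 0.019 for Dsp, -0.126 to 0.238 for Jup and -0.236 to 0.235 for Pkp3. For Dsg1a at E16.5 the ranges were -0.391 to 1.57 in basal and -0.886 to 0.020 in suprabasal cells. In the stage difference they were -5.37 to 7.39 for basal Dsg1b, -1.28 to 1.23 for suprabasal Dsc1, which was also 0.083 by DESeq2 and 0.493 without the deepest cells, and -0.845 to 0.165 for suprabasal Dsg1a. At E17.5 basal Dsg1a, Dsc3, Jup, Pkp1 and Pkp3 turned from 0.399, 0.633, 0.607, 0.559 and 0.631 to as low as -0.390, -0.222, -0.169, -0.274 and -0.241 with limits per 10000 UMIs, without collagen-led cells or with both, and suprabasal Jup from 0.014 to -0.093 under 5% mitochondrial UMIs, and it was also below 0 when scaled by the median ratio. The causes were not tested. The E16.5 MOF cKO sums rest on 21 and 22 basal and 9 and 13 suprabasal cells, which limits their precision.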
